A study of Mus musculus with 15 samples.

Results

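The integrated stress response is a program in which stress at the endoplasmic reticulum, in mitochondria or from missing amino acids leads to phosphorylation of the translation factor eIF2alpha. Most protein synthesis then slows, while translation of the mRNA of *Atf4* goes up. The transcription factor ATF4 turns on genes for amino acid synthesis and transport, further regulators and, in muscle with mitochondrial defects, secreted factors such as *Fgf21* and *Gdf15*. The 10 genes described here are *Atf4*, *Atf5*, *Ddit3*, *Trib3*, *Sesn2*, *Asns*, *Phgdh*, *Mthfd2*, *Fgf21* and *Gdf15*. They were chosen by symbol, with earlier results of these data known. All 10 were found among the 30672 gene identifiers of the count table, each with 1 identifier. As ATF4 itself is set largely at the level of translation, mRNA counts do not measure the protein.

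The 15 libraries came from the tibialis anterior muscle of male mice of the strain 129Pas at an age of 7 weeks. The 4 groups were wild type (WT, n = 4), wild type with tamoxifen (WT + TAM, n = 4), *Mtm1*-deficient males (Mtm1-/y, n = 4) and *Mtm1*-deficient males with tamoxifen (Mtm1-/y + TAM, n = 3). *Mtm1* encodes myotubularin, a phosphoinositide phosphatase whose loss causes X-linked centronuclear myopathy, and tamoxifen is a modulator of oestrogen receptors. How the allele was made, and the dose and duration of tamoxifen, were not stated. The labels number the libraries of a group without saying that each is a separate mouse. Tests therefore weigh differences against the spread between libraries, and mice or mutants counted below are libraries.

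Libraries held 18042558 to 45823277 counts, and levels are given as counts per 1000000 (CPM) after scaling by the trimmed mean of M values (TMM). *Mtm1* measured 13.5 to 17.7 CPM in wild-type libraries and 2.91 to 3.71 CPM in mutant libraries, with or without tamoxifen. The summed level of 8 fast fibre markers was 143597 to 243825 CPM. The library WT + TAM replicate 1 stood apart, with 1377 CPM summed over 8 slow fibre markers against 68.3 to 266 CPM in the other 14 libraries, and 3397 CPM over 6 fibroblast markers against 327 to 1668 CPM. It also had 3.19 CPM of *Flrt1*, against 108 to 139 CPM in WT + TAM replicates 2 to 4 and 0.575 to 1.29 CPM in WT. Within WT + TAM the low value was particular to replicate 1, while the 3 Mtm1-/y + TAM libraries had 1.33, 3.68 and 23.7 CPM of *Flrt1*. The reason for the low value in WT + TAM replicate 1 was not tested. Mtm1-/y replicate 1 had the highest adipocyte marker sum (1514 CPM) and the lowest fibroblast sum. Results that rest on these 2 libraries, below called the odd libraries, are given with and without them.

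ATF4 acts with partners of the C/EBP family at composite sites, and an often cited core is TGATGNAA, where N is any base. The core was searched on both strands in windows of 300 bases from RefSeq (GRCm38.p6), which reach from 250 bases before to 50 bases after each annotated start. It was found in 3 of the 10 genes, beside 4.51% of all 27025 genes, and in 3 of their 12 windows, beside 3.97% of all 32851 windows. The sites are shown because they mark which of the genes carry the core near their start, each on its gene's strand with the match in capitals:
*Asns*: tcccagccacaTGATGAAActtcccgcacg
*Trib3*: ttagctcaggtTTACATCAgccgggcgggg
*Fgf21*: agacccccccaTTGCATCAtccgtccaggc
The *Asns* stretch lies on the minus strand at chr6:7693214-7693243, with its match 23 to 16 bases before the RefSeq start. It falls within the gene span of the GENCODE M21 annotation, which starts further upstream. The *Trib3* stretch (minus strand, chr2:152344028-152344057) holds the reverse complement of the core at bases 15 to 22 after the RefSeq start. This match begins 14 bases before the GENCODE start. The *Fgf21* stretch (minus strand, chr7:45615611-45615640) holds the reverse complement 139 to 132 bases before the start. No match was found in the windows of *Atf4*, *Atf5*, *Ddit3*, *Sesn2*, *Phgdh*, *Mthfd2* and *Gdf15*. The cyclic AMP response element TGACGTCA, which reads the same on both strands, was in none of the windows of the 10 genes and in 1.79% of all windows. A match is a description of the letters and not of binding.

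Levels per length, as CPM per kilobase of exon (RPKM), spanned over 3 orders of magnitude among the 10 genes. In WT, *Atf4* measured 59.1 ± 7.00 RPKM (SD, n = 4) and ranked 458th of 15533 genes that passed the count filter. *Atf5*, a related factor also tied to the mitochondrial unfolded protein response, measured 26.5 ± 2.00 RPKM. *Ddit3*, which encodes the stress factor CHOP, measured 7.73 ± 0.673 RPKM. The enzymes *Asns* (2.12 ± 0.448 RPKM) and *Mthfd2* (1.87 ± 0.0529 RPKM) came next and did not differ beyond the spread of their libraries. Below them were *Sesn2* (0.853 ± 0.0474 RPKM), *Trib3* (0.551 ± 0.104 RPKM) and *Phgdh* (0.165 ± 0.0264 RPKM), the last in the lowest 11.7% of genes that passed the filter. *Fgf21* (0.0515 ± 0.0727 RPKM) and *Gdf15* (0.0107 ± 0.0213 RPKM) were at or near 0, and *Phgdh* and *Fgf21* overlapped between libraries, as did *Fgf21* and *Gdf15*. The order of the first 3 genes was the same in all 4 groups with no overlap between them in any. *Mthfd2* ranked above *Asns*, and *Gdf15* above *Fgf21*, in Mtm1-/y + TAM mice only, again with overlapping libraries. *Mthfd2* and *Sesn2* also overlapped in Mtm1-/y, and *Sesn2* and *Trib3* in WT + TAM mice.

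**Figure D1:**
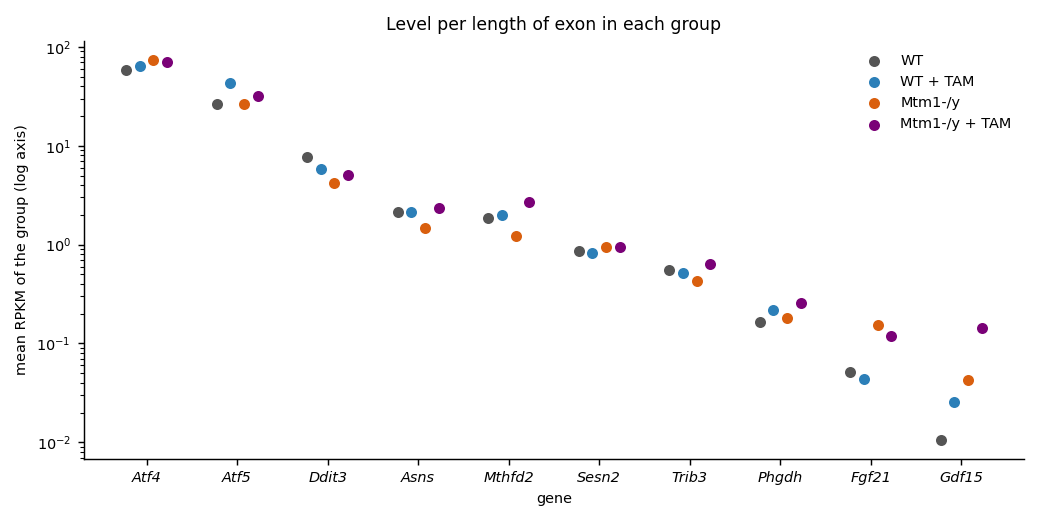
Mean RPKM (log axis) of each gene in the 4 groups, with genes ordered by their mean over groups and 1 point per group. *Atf4* is at 59.1 to 74.3 RPKM and *Gdf15* at 0.0107 to 0.142 RPKM.

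Of the 10 genes, 8 passed the count filter and were tested with edgeR in 1 fit across 15533 genes. *Fgf21* and *Gdf15* did not pass and were tested on their CPM by exact permutation. A gene is called where its Benjamini-Hochberg adjusted p is under 0.05. A change in bulk muscle can come from less RNA per cell or from fewer cells of a type, and these cannot be told apart here.

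**Figure D2:**
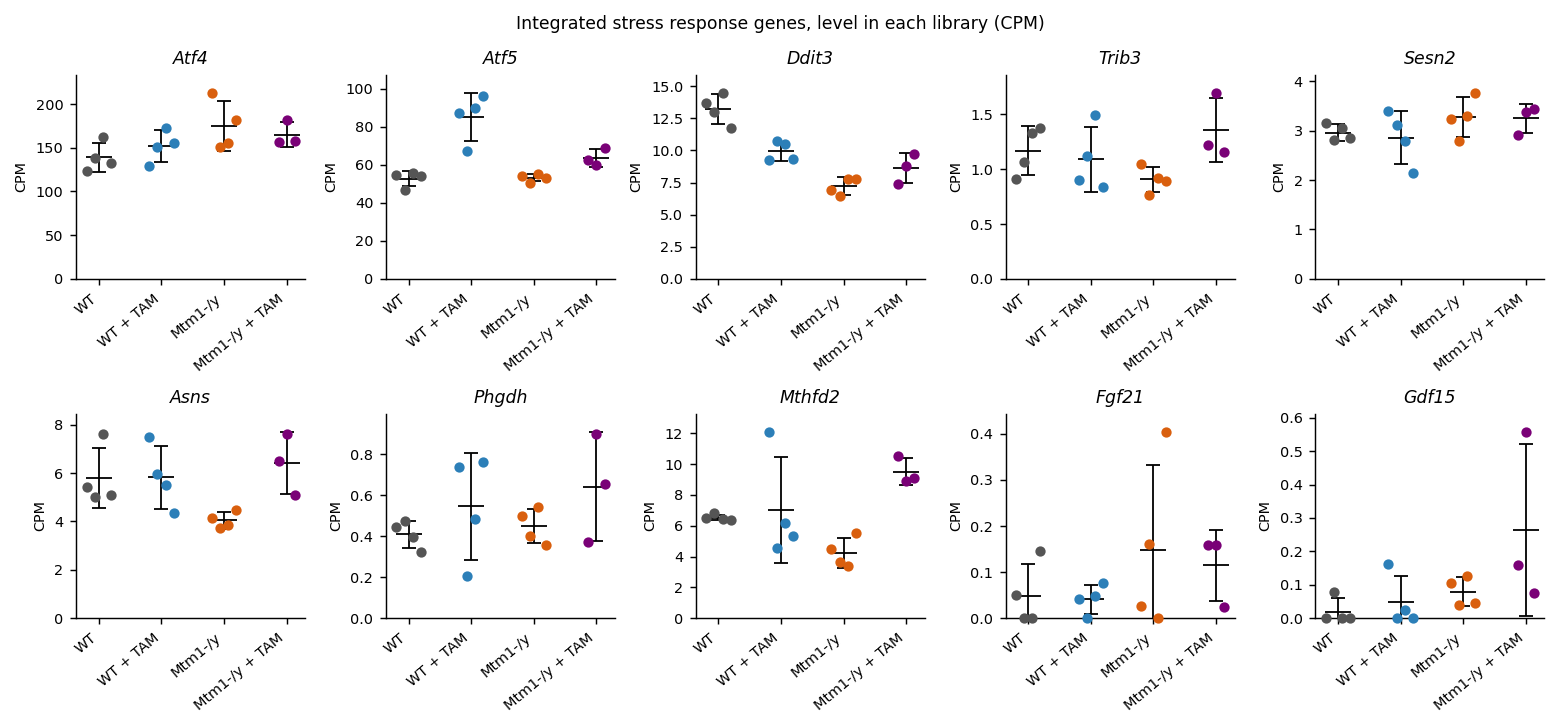
CPM of the 10 genes in each of the 15 libraries, with the mean and SD of each group as a bar and whiskers (n = 4, 4, 4 and 3, whiskers cut at 0). The 4 Mtm1-/y libraries of *Ddit3* lie below all 4 WT libraries, and the 4 WT + TAM libraries of *Atf5* lie above all 4 WT libraries.

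Untreated mutants were set against WT to see how the genes differ where myotubularin is missing. *Ddit3* and *Asns* were lower in Mtm1-/y mice, none of the 8 tested genes was called higher, and *Fgf21* and *Gdf15* were at or near 0 in both groups. The 2 calls among 8 tested genes (25%) stand beside 30.4% of all genes called, and the 3 genes whose libraries did not overlap between the groups (*Ddit3*, *Asns* and *Mthfd2*) stand beside 30.5% of all genes. The 8 genes had a median log2 fold change of -0.17, against 0.000475 over all genes.

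*Ddit3*, on chromosome 10 (127290774 to 127296288), encodes a transcription factor that promotes cell death under lasting stress. It measured 13.7, 13.0, 14.5 and 11.8 CPM in WT and 6.90, 6.45, 7.82 and 7.82 CPM in Mtm1-/y mice. All 4 mutant libraries were below all WT libraries, at 0.548 times the WT level (-0.87 on the log2 scale, SE 0.11, adjusted p 7.7e-05). The call was made in all 17 alternatives, with log2 fold changes of -0.92 to -0.82. Of the 1713 exon bases of *Ddit3*, 105 are shared on the same strand with a second identifier of that name that is not a row of the table, and 186 on either strand with that and the neighbouring genes *Gm4189* and *Mars*. How reads from shared bases were assigned is not known, because the counting's strand setting was not stated.

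*Asns*, on chromosome 6 (7675169 to 7693254), encodes asparagine synthetase and carries the core shown above. It measured 5.44, 5.02, 7.61 and 5.10 CPM in WT and 4.16, 3.71, 3.85 and 4.48 CPM in Mtm1-/y mice. The groups did not overlap, but WT replicate 3 was well above the other WT libraries. On the log2 scale the difference was -0.51 (SE 0.18, adjusted p 0.0471). The call lay close to the threshold and was made in 5 of 17 alternatives. Leaving out any of the 8 libraries ended it (adjusted p 0.0511 to 0.163, the last without WT replicate 3, at -0.36).

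*Mthfd2*, on chromosome 6 (83305691 to 83325908), encodes a mitochondrial enzyme of one-carbon metabolism. It measured 6.52, 6.80, 6.42 and 6.40 CPM in WT and 4.50, 3.63, 3.37 and 5.53 CPM in Mtm1-/y mice. No mutant library reached the lowest WT library, yet the log2 fold change of -0.61 (SE 0.24) was not called (adjusted p 0.0705). Its SE carries the spread of the treated groups, which share the fit. When only WT and Mtm1-/y libraries were fitted the adjusted p was 0.0240, without both odd libraries it was 0.00848 (-0.63), and without Mtm1-/y replicate 4 it was 0.0413 (-0.76).

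*Atf4*, on chromosome 15 (80255184 to 80257541), measured 124, 139, 162 and 132 CPM in WT and 213, 151, 155 and 182 CPM in Mtm1-/y mice. The groups overlapped through WT replicate 3. The difference of 0.33 (SE 0.13) on the log2 scale was not called (adjusted p 0.0571). It was called in 5 of 17 alternatives, among them the fits without WT replicate 3 (0.41, adjusted p 0.0333), Mtm1-/y replicate 2 (0.40, 0.0378) and Mtm1-/y replicate 3 (0.41, 0.0294). Other fits without single libraries weakened it, with a whole range of 0.23 to 0.41 (adjusted p 0.0294 to 0.160). The highest mutant value (213 CPM) was that of Mtm1-/y replicate 1, an odd library.

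The other 4 tested genes were not called. *Atf5*, on chromosome 7 (44812256 to 44816658), differed by 0.01 (SE 0.10) on the log2 scale. *Sesn2*, a sestrin that restrains the growth kinase mTORC1, lies on chromosome 4 (132492032 to 132510501) and differed by 0.15 (SE 0.16). *Trib3*, a pseudokinase induced by ATF4 and CHOP, lies on chromosome 2 (152337422 to 152344032) and measured 0.910 to 1.38 CPM in WT and 0.766 to 1.05 CPM in mutants (-0.35, SE 0.24). *Phgdh*, the first enzyme of serine synthesis from glucose, lies on chromosome 3 (98313170 to 98339990). It had 9 to 19 counts in each of these 8 libraries, a depth at which only a large difference could have been called (0.13, SE 0.37).

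*Fgf21*, a hormone of nutrient stress on chromosome 7 (45613886 to 45615490), had 2, 0, 0 and 5 counts in WT and 1, 4, 0 and 18 counts in Mtm1-/y mice. The high value was that of Mtm1-/y replicate 4 alone. *Gdf15*, a hormone that lowers appetite, lies on chromosome 8 (70629393 to 70632456) and had 0, 2, 0 and 0 counts in WT and 4, 1, 4 and 2 counts in mutants. In CPM the 2 groups of *Gdf15* overlapped through WT replicate 2 (0.0790 CPM). Neither gene differed by the exact two-sided permutation test (p = 0.457 for *Fgf21* and 0.0857 for *Gdf15*, where the smallest p possible is 0.0286). A count of 3 in a library equals 0.0672 to 0.159 CPM, and a library with 0 counts can still hold a level below that.

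Endothelial markers moved with the genotype. Their sum over 6 genes was 393 to 518 CPM in WT and 208 to 310 CPM in Mtm1-/y libraries, and 5 of the 6 were called lower. Of 8 macrophage markers 2 were called higher, with sums of 26.3 to 45.3 CPM in WT and 30.4 to 76.5 CPM in mutants. Of 8 fast fibre markers 2 were called lower. Schwann cell markers had 2 of 6 higher, with sums of 75.3 to 111 CPM in WT and 99.3 to 138 CPM in mutants. Satellite cell markers had 1 of 5 higher and 2 lower, with sums of 43.4 to 53.9 CPM and 44.6 to 68.4 CPM. Of 8 slow fibre markers 1 was called lower, and of 8 adipocyte and 6 fibroblast markers 1 each was called higher. These counts stand beside 30.4% of all genes called in this comparison. With that share, 1 or 2 calls in a list of 6 or 8 markers do not show a shift of that cell type. The part of these marker differences in the values of *Ddit3* and *Asns* was not tested.

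**Figure D3:**
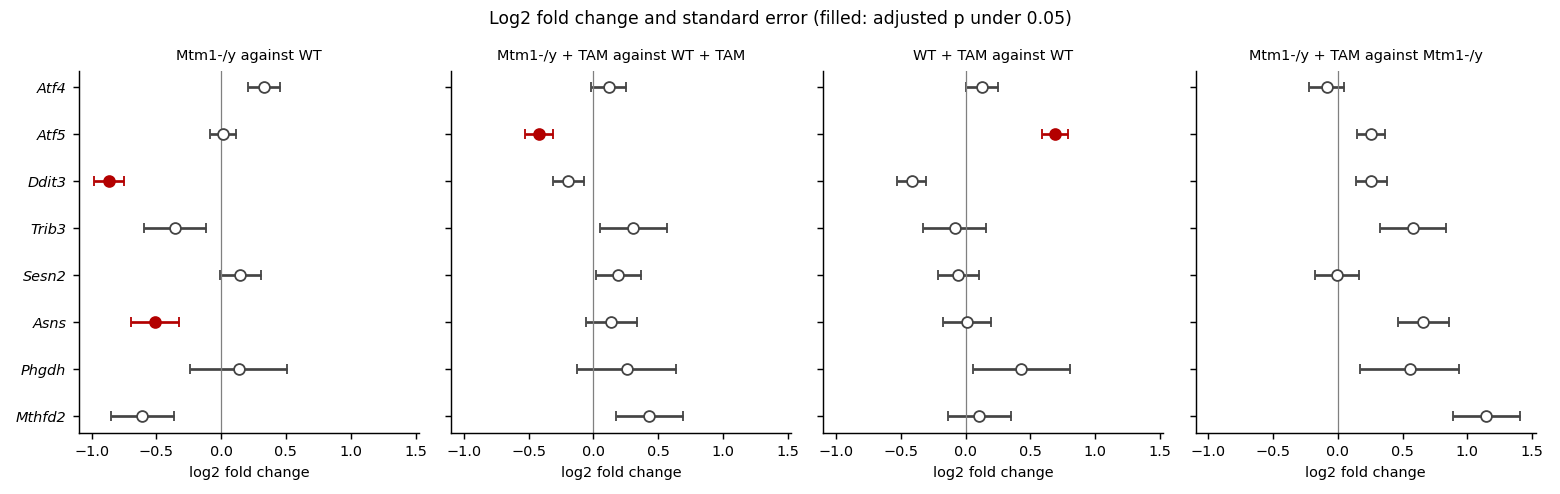
Log2 fold change with its SE (horizontal axis) for the 8 tested genes in the 4 comparisons of 2 groups. Filled points mark an adjusted p under 0.05, which holds for *Ddit3* and *Asns* in Mtm1-/y against WT, *Atf5* in both comparisons that involve WT + TAM, and for no gene in Mtm1-/y + TAM against Mtm1-/y.

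In wild-type muscle *Atf5* rose with tamoxifen, and edgeR called no other of the 8 tested genes. This 1 call of 8 stands beside 0.309% of all genes. *Atf5* measured 54.8, 46.9, 55.7 and 54.0 CPM in WT and 87.3, 67.2, 90.2 and 96.2 CPM in WT + TAM mice. The groups did not overlap, and WT + TAM replicate 1, which stood apart in other genes, was among the high libraries. The treated level was 1.61 times that of WT (0.69 on the log2 scale, SE 0.10, adjusted p 0.00942). It was called in all 17 alternatives (0.63 to 0.79, adjusted p 5.6e-07 to 0.0489). Of the 1993 exon bases of *Atf5*, 82 are shared with the opposite-strand genes *Nup62* and *Il4i1*.

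*Ddit3* measured 9.24, 10.7, 10.5 and 9.30 CPM in WT + TAM mice, which was below every WT library (11.8 to 14.5 CPM). Its log2 fold change of -0.41 (SE 0.11) was not called by edgeR (adjusted p 0.152), and was called by DESeq2 (adjusted p 0.0379). *Atf5* and *Ddit3* were the 2 of 8 genes whose groups did not overlap, beside 8.08% of all genes. *Mthfd2* measured 12.1, 4.54, 6.15 and 5.34 CPM in WT + TAM mice, and only WT + TAM replicate 1 was above the WT range. Its log2 fold change was 0.10 (SE 0.24) with that library and -0.28 without it, neither of them called. *Asns* (4.35 to 7.48 CPM, 0.01) and *Sesn2* (2.14 to 3.39 CPM, -0.06) overlapped with WT. *Phgdh* (4 to 20 counts, 0.43, SE 0.38) and *Trib3* (22 to 62 counts, -0.08, SE 0.24) were not called either. *Atf4* measured 129 to 173 CPM (0.13, SE 0.13). *Fgf21* had 0 to 2 counts and *Gdf15* 0 to 4 counts per WT + TAM library, with exact permutation p of 0.83 and 0.71.

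Treated and untreated mutants were compared next. EdgeR called 0 of the 8 genes, beside 0.0129% of all genes, DESeq2 and limma-voom also called 0, and 5 of the 8 had an unadjusted p under 0.05, beside 5.54% of all genes. The libraries of the 2 groups did not overlap for *Mthfd2*, *Asns*, *Trib3* and *Atf5*, with the treated group above in each. These 4 of 8 genes stand beside 5.71% of all genes. As the genes were chosen with earlier results of these data known, these shares are a description and not a test. The 8 genes had a median log2 fold change of 0.41, against -0.00308 over all genes.

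*Mthfd2* had the widest gap, with 10.5, 8.92 and 9.09 CPM in the 3 treated mutants against 3.37 to 5.53 CPM in the untreated. The log2 fold change was 1.15 (SE 0.26, unadjusted p 0.000463, adjusted p 0.682). Without both odd libraries the value was 1.17 and was called (adjusted p 0.0192), 1 of 7 calls over all genes in that fit, and leaving out each library of these 2 groups in turn gave 1.04 to 1.30 with no call. *Asns* measured 6.52, 7.63 and 5.09 CPM in treated mutants against 3.71 to 4.48 CPM in untreated mutants (0.66, SE 0.20, adjusted p 0.855). WT libraries had 5.02 to 7.61 CPM, and the 3 treated mutants overlapped with them. *Trib3* measured 1.22, 1.69 and 1.16 CPM against 0.766 to 1.05 CPM (0.58, SE 0.25), or 23 to 64 counts against 19 to 40 counts. *Atf5* measured 62.5, 59.7 and 68.9 CPM against 50.7 to 55.2 CPM (0.26, SE 0.11).

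*Ddit3* measured 7.42, 8.79 and 9.74 CPM in treated mutants, against 6.45 to 7.82 CPM in untreated mutants, with overlap (0.26, SE 0.12). *Phgdh* ranged from 7 to 34 counts in treated mutants, with the highest level in Mtm1-/y + TAM replicate 2 (0.55, SE 0.38). The log2 fold changes of *Atf4* (-0.08, SE 0.14) and *Sesn2* (-0.01, SE 0.17) were smaller than their errors. *Gdf15* had 3, 21 and 3 counts in treated mutants and 1 to 4 counts in untreated, an average of 0.264 against 0.0792 CPM that rested on Mtm1-/y + TAM replicate 2 (exact permutation p = 0.0857, smallest possible 0.0286). Without that library the treated average was 0.117 CPM. *Fgf21* had 3, 6 and 1 counts (exact permutation p = 0.771).

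Mtm1-/y + TAM replicate 2 had the highest *Trib3*, *Phgdh* and *Gdf15* of the 15 libraries. Its *Asns* (7.63 CPM) was also the highest, but close to that of WT replicate 3 (7.61 CPM). Mtm1-/y + TAM replicate 2 also had the highest macrophage marker sum (99.4 CPM). After WT + TAM replicate 1, it had the highest slow fibre sum (266 CPM) and fibroblast sum (1668 CPM). Macrophage sums were 59.1 to 99.4 CPM in treated and 30.4 to 76.5 CPM in untreated mutants. The part of these in the values of *Asns* and *Mthfd2* was not tested.

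Under tamoxifen, Mtm1-/y mice were compared with WT mice that had the same treatment. *Atf5* was lower in treated mutants (59.7 to 68.9 CPM) than in treated WT (67.2 to 96.2 CPM), a difference of -0.42 on the log2 scale (SE 0.11, adjusted p 0.0150). The groups overlapped through WT + TAM replicate 2 and Mtm1-/y + TAM replicate 3. The call was lost without Mtm1-/y + TAM replicate 1 (adjusted p 0.0541) or replicate 2 (0.0769), and when only these 2 groups were fitted (0.0527). This 1 call of 8 genes stands beside 20.1% of all genes called. No gene of the 8 had groups without overlap, beside 31.6% of all genes.

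*Ddit3*, called between the untreated groups, differed by -0.19 on the log2 scale (SE 0.12, adjusted p 0.287) between the treated groups. *Asns* differed by 0.14 (SE 0.20) and *Atf4* by 0.12 (SE 0.14). *Mthfd2* differed by 0.43 (SE 0.26, adjusted p 0.261) with all libraries. Without WT + TAM replicate 1 it was called, at 0.82 (adjusted p 0.0046), since the other 3 treated WT libraries had 4.54 to 6.15 CPM against 8.92 to 10.5 CPM in treated mutants. *Sesn2* (0.19), *Trib3* (0.31) and *Phgdh* (0.26) were not called. Exact permutation did not separate the treated groups for *Fgf21* and *Gdf15* (p = 0.200 and 0.114, smallest possible 0.0286). With so few libraries and counts this does not show equal levels.

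The interaction term tested the difference between the tamoxifen effects of the 2 genotypes, and edgeR called it for 0 of 8 genes, beside 0% of all genes. Limma-voom called 0 and DESeq2 called 1 (*Ddit3*), and 4 of the 8 genes had an unadjusted p under 0.05, beside 10.6% of all genes. *Ddit3* had an interaction of 0.67 on the log2 scale (SE 0.16), as its tamoxifen difference was -0.41 in WT and 0.26 in mutants (adjusted p 0.300 by edgeR, 0.0443 by DESeq2). *Mthfd2* had an interaction of 1.04 (SE 0.36, adjusted p 0.384), and of 1.43 without WT + TAM replicate 1 (adjusted p 0.0440, 1 of 7 calls over all genes in that fit). *Asns* (0.65, SE 0.27) and *Atf5* (-0.43, SE 0.15) were not called in any alternative.

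Averaged over both genotypes, a comparison added after the values had been seen, tamoxifen raised *Atf5* by 0.47 (SE 0.07, adjusted p 0.0160). This was 1 of 8 genes, beside 0.206% of all genes. The call was lost without Mtm1-/y + TAM replicate 3 (adjusted p 0.0751) and made in the other 22 alternatives. *Mthfd2* (0.63, SE 0.18, adjusted p 0.307) and *Asns* (0.33, SE 0.13, adjusted p 0.637) were not called.

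**Figure D4:**
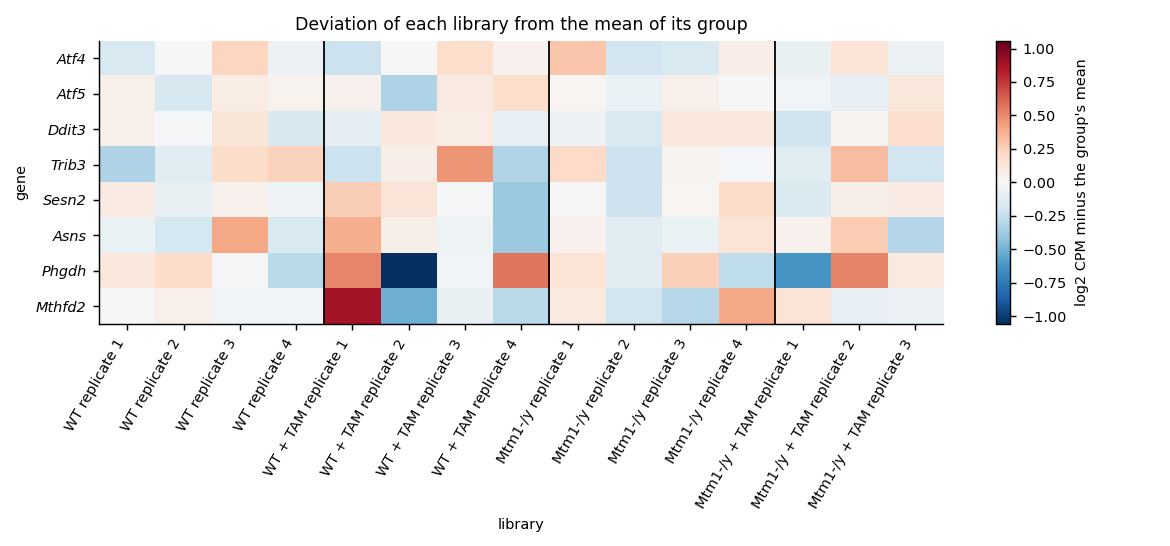
Colour shows, for the 8 tested genes (rows) and 15 libraries (columns, with lines between groups), log2 CPM minus the mean of the library's group. The deviations of *Phgdh* (-1.06 in WT + TAM replicate 2) and *Mthfd2* (0.88 in WT + TAM replicate 1) are the widest, and Mtm1-/y replicate 2 is below its group's mean in all 8 genes.

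Within groups, the genes did not rise and fall together in most libraries. Mtm1-/y replicate 2 was below its group's mean in all 8 genes, by 0.07 to 0.22 on the log2 scale, and no library was above in all 8. In WT + TAM replicate 1, *Mthfd2*, *Phgdh* and *Asns* were above the mean of the group while *Atf4* and *Trib3* were below. The genes most like each member were listed by Pearson's r of log2 CPM over the 15 libraries, leaving out genes whose mean log2 CPM was under 1. As a description with no test, *Asns* was most like *Efemp1* (r = 0.793) and then *Mthfd2* (0.758), and *Mthfd2* was most like *Ccdc8* (0.810) and then *Asns*. *Atf4* was most like *Nubp2* (0.927) and *Ppp1r15a* (0.900), and *Ddit3* most like *Pola2* (0.931) and *Pdgfa* (0.924). The first match was *Agap1* for *Atf5* (0.856), *Nfkb1* for *Trib3* (0.696), *Smad2* for *Sesn2* (0.853) and *Acot7* for *Phgdh* (0.728). By deviations from the group means, which leave out the differences between groups, *Nubp2* was again first for *Atf4* (0.938) and *Nfkb1* for *Trib3* (0.843), and no member was among the 2 genes most like another. *Trib3* and *Phgdh* had a mean log2 CPM under 1, so by either measure they could not be listed as a match. These points share their libraries and their depth, and the first measure also shares the 4 group means.

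Other genes of the pathway were counted in 8 lists of 126 tested genes, none of them among the 10. In Mtm1-/y against WT mice 44 were called (34.9%, beside 30.4% of all genes), 23 higher and 21 lower, with a median of 0.07.

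Kinases and phosphatases of eIF2alpha and factors that bind it had 2 of 16 genes higher and 3 lower (median 0.02). *Ppp1r15a*, which encodes the phosphatase subunit GADD34 that ends the response and is itself induced by ATF4 and CHOP, rose from 18.4 ± 4.85 to 44.2 ± 18.2 CPM (SD, n = 4 each). Its log2 fold change was 1.27 (adjusted p 0.00357), and 0.94 to 1.41 without single libraries. *Eif2b4*, a subunit of the exchange factor eIF2B, also rose (0.39). *Eif2s2*, the beta subunit of eIF2 (-0.32), *Dele1*, which relays mitochondrial stress to the kinase HRI (-0.38), and *Eif2ak2*, the double-stranded RNA kinase PKR (-0.70), fell.

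Stress transcription factors and regulators induced by ATF4 had 7 of 18 genes higher and 2 lower (median 0.28). *Cebpb*, a partner of ATF4, rose from 1.77 ± 0.235 to 8.32 ± 3.51 CPM (2.22, adjusted p 0.000395). *Sesn3*, the sestrin related to *Sesn2* (0.65), and *Eif4ebp1*, which restrains cap-dependent translation (1.47), rose as well. The value of *Eif4ebp1* rested in part on Mtm1-/y replicate 1 at 125 CPM, and without that library it was 0.86 (adjusted p 0.000877). *Cebpg*, another ATF4 partner, fell from 65.6 ± 1.80 to 39.4 ± 8.01 CPM (-0.73, adjusted p 0.00147), as did the angiogenic factor *Vegfa* (-0.83, adjusted p 0.0238). A relation of *Vegfa* to the lower endothelial markers was not tested.

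Enzymes of serine, one-carbon, proline and related synthesis had 1 of 18 genes higher and 6 lower (median -0.000915). *Shmt1*, cytosolic serine hydroxymethyltransferase, fell from 11.6 ± 1.32 to 4.01 ± 1.05 CPM (-1.53, adjusted p 9.6e-05). *Gpt2*, the mitochondrial alanine transaminase, fell as well (-1.01, adjusted p 0.000679). Of 10 tested amino acid transporters edgeR called 0, with 2 at an unadjusted p under 0.05 (beside 41.6% of all genes), and DESeq2 called 2.

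Cytosolic aminoacyl-tRNA synthetases, which load tRNAs with amino acids, had 4 of 20 higher and 2 lower (median 0.01). *Kars* (0.55), *Vars* (0.70) and *Eprs* (0.45) rose, and *Yars* (-0.53) and *Mars* (-0.32), the neighbour of *Ddit3*, fell. Genes of the unfolded protein response of the endoplasmic reticulum had 6 of 21 higher and 2 lower (median 0.13). *Xbp1*, the factor activated by splicing, rose from 46.2 ± 4.13 to 78.6 ± 5.69 CPM (0.77, adjusted p 0.00143). *Syvn1*, a ligase of protein disposal (0.50), and the sensor *Atf6* (0.37) rose, and the chaperones *Dnajc3* (-0.30) and *Calr* (-0.32) fell.

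Genes of the mitochondrial unfolded protein response had 1 of 18 higher and 4 lower (median -0.08). *Sod2*, the mitochondrial superoxide dismutase, fell from 267 ± 20.2 to 161 ± 22 CPM (-0.74, adjusted p 0.00106). The mitochondrial chaperones *Hspd1* (-0.51) and *Trap1* (-0.33) fell, and *Ubl5* rose (0.34, adjusted p 0.0485). Receptors of the secreted factors had 4 of 5 tested genes called (median 0.65). *Fgfr4* fell from 8.37 ± 1.82 to 1.20 ± 0.551 CPM (-2.77, adjusted p 7.0e-06) and *Ret*, the signalling partner of the *Gdf15* receptor, from 9.04 ± 0.244 to 2.98 ± 0.184 CPM (-1.60, adjusted p 4.0e-05). *Fgfr3* (1.61, and 1.08 to 1.82 without single libraries) and *Fgfr1* (0.72) rose. *Klb*, the co-receptor of *Fgf21*, did not pass the count filter, and *Gfral*, the *Gdf15* receptor itself, was not found in the count table. Of the list genes named here, *Calr*, *Dele1*, *Dnajc3*, *Fgfr1*, *Mars*, *Ubl5* and *Vegfa* were not called in at least 1 alternative, and the others were called in every alternative.

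**Figure D5:**
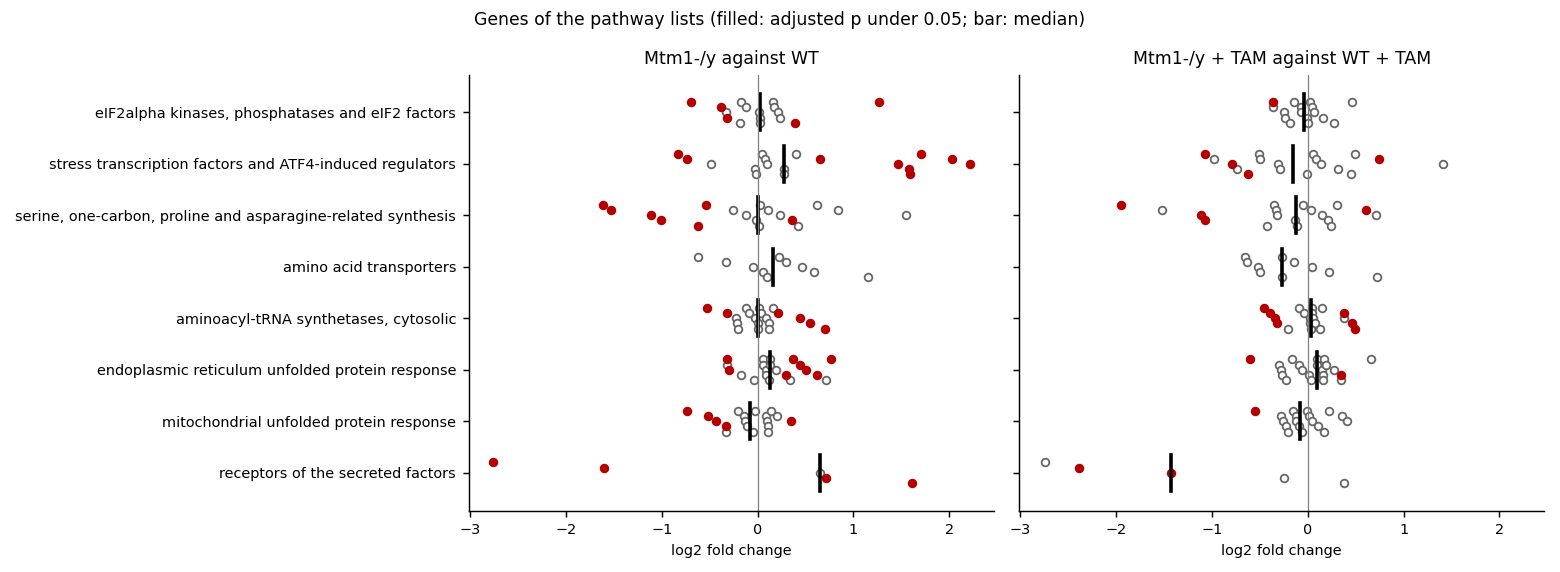
Log2 fold change (horizontal axis) of 126 genes in 8 pathway lists (rows) between mutant and WT mice, untreated on the left and treated on the right. Each point is a gene, filled where its adjusted p is under 0.05, and the bar is the list's median. The lists hold calls on both sides of 0, 44 on the left and 21 on the right.

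Between treated groups 21 of the 126 genes were called (16.7%, beside 20.1% of all genes), 6 higher and 15 lower. The genes higher in treated mutants included *Sesn3* (0.74), *Kars* (0.49), *Hars* (0.38), *Eprs* (0.46) and the chaperone *Dnajb11* (0.34). The lower genes included *Cebpg* (-0.79), *Gpt2* (-1.11), *Shmt1* (-1.07), *Dnajc3* (-0.61), *Fgfr4* (-2.39) and *Ret* (-1.43). *Aldh1l2*, a mitochondrial enzyme of folate metabolism, fell from 17.3 ± 9.64 CPM (n = 4) to 4.45 ± 0.365 CPM (n = 3) (-1.95, adjusted p 0.00489). Its highest WT + TAM library had 31.8 CPM, and without single libraries the log2 fold change was -2.11 to -1.49. *Jdp2* (-0.62), *Stc2* (-1.08), *Eif2s2* (-0.37), *Mars* (-0.46), *Iars* (-0.39), *Aars* (-0.32) and *Sod2* (-0.55) were also called lower. The value of *Stc2* ranged from -1.30 to -0.59 without single libraries. Of these named genes, *Aars*, *Dnajb11*, *Eif2s2*, *Iars*, *Jdp2*, *Mars*, *Sod2* and *Stc2* were not called in at least 1 alternative, and the others were called in every alternative. Without both odd libraries the count was 37.

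Tamoxifen in WT mice raised 1 of the 126 genes (0.794%, beside 0.309% of all genes), *Xbp1*, from 46.2 ± 4.13 to 81.9 ± 20.2 CPM (SD, n = 4 each, 0.83, adjusted p 0.0296). Without WT + TAM replicates 2, 3 or 4 or any of the WT libraries the call was lost (adjusted p 0.0607 to 0.109). Of the 126 genes limma-voom called 1 and DESeq2 called 3, and edgeR called 4 without both odd libraries. In mutants edgeR, DESeq2 and limma-voom called 0 of the 126 genes for tamoxifen, with 10 at an unadjusted p under 0.05 (beside 5.54% of all genes). The interaction was called for 0 of the 126 by edgeR and limma-voom, with 14 at an unadjusted p under 0.05 (beside 10.6% of all genes), and for 4 by DESeq2.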

How the data were processed

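The deposited table holds whole-number counts of reads, which were not normalized by the authors, with 1 row per Ensembl identifier. Tools named in the submitters' processing notes are STAR 2.5.3a, HTSeq 0.6.1p1, Bowtie2 2.2.8 and cutadapt 1.10, with the builds GRCm38 and mm10. The notes used here give neither their roles nor the strand setting. Symbols, coordinates and exon lengths came from GENCODE M21 and promoter windows from RefSeq.

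Genes were filtered with filterByExpr (minimum count 10), which kept 15533, and scaled by TMM. Group means over all 15 libraries were tested with the quasi-likelihood test of edgeR 4.0.16 (R 4.3.3) at a Benjamini-Hochberg adjusted p of 0.05. The edgeR steps were also run on simulated counts of independent libraries without any odd library. The outcome is not reported here, and that run has no bearing on the odd libraries. The 2 genes under the filter were tested by exact two-sided permutation of CPM. Alternatives were RLE and upper-quartile factors, no filter, a minimum of 30, DESeq2 1.42.0, limma-voom (limma 3.58.1), a replicate block, libraries left out and fits of the compared groups alone. Log2 CPM used a prior count of 2. The text names all 10 genes, up to 3 called genes per list and direction by p, and the 2 genes most like each member, and some list genes that this rule picks are not reported here. The members and lists were chosen with earlier results of these data known.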

Additional observations from a re-analysis of the deposited data

Results flagged for a closer look

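In groups of 4, a library was marked where its gap to the nearest other library, as a share of the group's range, passed Dixon's 95% critical value. This held in 3 of 30 groups tested, where chance marks about 1 in 20. That rate does not apply to the 2 groups of *Gdf15*, since with counts at or near 0 a few counts in 1 library are enough to mark it. *Asns* in WT replicate 3 measured 7.61 CPM against 5.02 to 5.44 CPM in the other WT libraries. *Gdf15* in WT replicate 2 measured 0.0790 CPM (2 counts) against 0 in the others. *Gdf15* in WT + TAM replicate 1 measured 0.163 CPM (4 counts) against 0 to 0.0241 CPM. EdgeR called no interaction of genotype and tamoxifen among the 8 tested genes.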

How the results depend on the processing

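The count of calls among the 8 tested genes moved by at most 1 in any alternative, but the genes called could change while the count did not. In Mtm1-/y against WT mice the count was 1 in place of 2 with no filter and with limma-voom, and 1 to 2 without single libraries. It was 3 with DESeq2, without both odd libraries (WT + TAM replicate 1 and the Mtm1-/y replicate 1) and when only the groups compared were fitted. Without Mtm1-/y replicate 4 *Asns* was lost (adjusted p 0.0535) and *Mthfd2* gained (0.0413), and without WT replicate 3 *Asns* was lost (0.163) and *Atf4* gained (0.0333). Between treated groups it was 2 in place of 1 without both odd libraries, 0 when only the groups compared were fitted, and 0 to 2 without single libraries. In WT + TAM against WT mice DESeq2 called 2 in place of 1. In Mtm1-/y + TAM against Mtm1-/y mice the count was 1 in place of 0 without both odd libraries. The interaction was called for 1 gene in place of 0 by DESeq2 and without both odd libraries, and for 0 to 1 without single libraries. Tamoxifen averaged over genotypes gave 0 without Mtm1-/y + TAM replicate 3 and 1 without any other library.

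Changes of sign were limited to log2 fold changes that were not called. Upper-quartile factors gave -0.037 for *Atf5* (Mtm1-/y against WT), -0.0011 for *Asns* (WT + TAM against WT) and 0.018 for *Sesn2* (Mtm1-/y + TAM against Mtm1-/y). Without both odd libraries, WT + TAM against WT gave 0.0096 for *Trib3*, -0.13 for *Asns* and -0.28 for *Mthfd2*, and Mtm1-/y + TAM against Mtm1-/y gave 0.022 for *Atf4*. Without single libraries, *Atf5* ranged from -0.041 to 0.037 in Mtm1-/y against WT. WT + TAM against WT ranged from -0.13 to 0.17 for *Asns*, -0.30 to 0.023 for *Trib3*, -0.28 to 0.26 for *Mthfd2* and -0.15 to 0.060 for *Sesn2*. The interaction ranged from -0.19 to 0.36 for *Phgdh* and -0.069 to 0.14 for *Sesn2*. Mtm1-/y + TAM against Mtm1-/y ranged from -0.16 to 0.022 for *Atf4* and -0.076 to 0.067 for *Sesn2*. Treated groups ranged from -0.013 to 0.28 for *Asns* and -0.056 to 0.49 for *Phgdh*. The cause was not tested.

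The labels give groups the same replicate numbers. A correlation of deviations over 0.1 was found in 6 of 21 same-numbered pairs (median -0.0041) and in 10 of 63 other-numbered pairs (median -0.0126). These values cannot tell whether the numbers pair the libraries. With the number as a replicate block 1 gene in place of 2 was called in Mtm1-/y against WT (*Asns* was lost), *Asns* in WT + TAM against WT was -0.000249, and no other call among the 8 genes changed.

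Over all genes, DESeq2 called 298 in place of 48 in WT + TAM against WT, 4 in place of 2 in Mtm1-/y + TAM against Mtm1-/y, 74 in place of 0 for the interaction and 119 in place of 32 for tamoxifen averaged over genotypes. Without both odd libraries these counts were 347, 7, 14 and 128, and 4600 in place of 3121 between treated groups. At this depth *Fgf21*, *Gdf15* and *Phgdh* had too few counts for all but large differences to be called.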
